A study of Mus musculus with 20 samples.

Results

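Tumours given a tumour-binding antibody with or without the payload T785 were compared in a mouse study, to describe what the payload added. The 5 tumours treated with the conjugate of anti-rHER2 and T785 (anti-rHER2 ISAC, an immune-stimulating antibody conjugate) were set against the 5 treated with the same antibody without a payload (anti-rHER2). These are 10 of the study's 20 tumours, chosen by their treatment label alone, and all 770 genes of the deposited table were tested. T785 is an agonist of Toll-like receptors 7 and 8, and anti-rHER2 binds rat HER2. The other groups, 5 tumours each, received an isotype antibody that carried T785 (isotype ISAC) or an isotype control antibody without it (isotype antibody).

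All 20 tumours grew from MMC cells, a mouse mammary carcinoma line, under the skin of FVB/N-TgN(MMTV-Erbb2)NK1Mul/J hosts, which carry an Erbb2 transgene driven by the MMTV promoter. The mice were 6 to 8 weeks old at implantation, per the labels. Treatment began at tumour volumes of 200 to 500 mm3, with mice randomized on that volume. Every mouse received 5 mg/kg of antibody or conjugate into the peritoneum, and tumours were taken on day 1. Every tumour thus comes from 1 cell line in a host with the transgene, each group contains an antibody, and the hosts keep their own immune cells. The labels do not say which mice shared a cage, an extraction or an instrument run.

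Toll-like receptors 7 and 8 sit in the endosomes of myeloid cells and sense single-stranded RNA. They signal through the adaptor MyD88 to NF-kB and to interferon regulatory factors, which switch on chemokine, cytokine and interferon genes. Antibody bound to a cell is recognised by Fc-gamma receptors on macrophages, neutrophils and other myeloid cells, which take up what the antibody coats, so that a payload on the antibody can reach the endosome with it.

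RNA was counted with nCounter probes, and the deposited value is a normalized signal on a linear scale, called signal here. Dividing each tumour's values by the signal of a single count gave whole counts, 398311 to 508433 per anti-rHER2 ISAC tumour and 297116 to 432499 per anti-rHER2 tumour. The median signal over the 770 genes was 93.5 ± 11.6 in anti-rHER2 ISAC tumours and 68.8 ± 5.60 in the anti-rHER2 tumours (SD, n = 5 each). The part of this difference in the results was not tested beyond the other scalings given with them. The geometric mean of 20 reference genes lay between 389.26 and 389.27 in every tumour. Lcn2 alone took 22.9% to 32.9% of the counts of an anti-rHER2 ISAC tumour and 25.1% to 29.9% of those of an anti-rHER2 tumour. Fold changes are differences of mean log2(signal + 1), anti-rHER2 ISAC minus anti-rHER2. A gene was called higher or lower where limma's p value, adjusted by Benjamini-Hochberg over the 770 genes, was below 0.05. In bulk tumour RNA, fewer cells of a type and less RNA per cell cannot be told apart. Values listed per tumour are signals of replicates 1 to 5 of the labels, and means are given ± SD (n = 5 each).

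T785 on anti-rHER2 went with higher levels of genes for monocyte-attracting chemokines, Fc-gamma receptors and neutrophil receptors, and with lower levels of MHC class II genes. In all, 151 genes were called higher, 19.6% of those tested, and 23 were called lower, 2.99%. The median log2 fold change was 0.86 over the genes called higher and -0.81 over those called lower, against 0.16 over all genes. Of the genes called higher, 57 had a log2 fold change of at least 1 and 15 of at least 2, while 6 genes called lower had one of -1 or less. The groups did not overlap in 94 of the genes called higher and in 10 of those called lower. Without regard to the test, the lowest anti-rHER2 ISAC tumour was above the highest anti-rHER2 tumour in 96 genes (12.5%), and all anti-rHER2 ISAC tumours were below all anti-rHER2 tumours in 12 (1.56%).

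The direction of small changes depended on the scaling. When every tumour was given the same median, 61 genes were called higher and 200 lower, and the median log2 fold change over all genes was -0.27. Median-ratio scaling called 87 higher and 51 lower around a median of -0.02, and quantile normalization called 80 higher and 121 lower around a median of -0.10. Counts and medians of gene lists under these scalings, given below, stand against these values for all genes. Of the 174 genes first called, 84, 110 and 101 were called in the same direction under these scalings, and none of the 174 was called in the opposite direction. The fold change itself changed sign in 13 of the 174 with equal medians, all with a log2 fold change of at most 0.41 on the deposited scale, in 3 with quantile normalization and in none with median-ratio scaling. The counts also depended on single tumours. In each fit that left out a tumour, lower calls numbered 12 to 17, fewer than the 23. They numbered 12 to 14 without anti-rHER2 tumours 4 or 5 or anti-rHER2 ISAC tumours 1, 4 or 5.

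**Figure D1:**
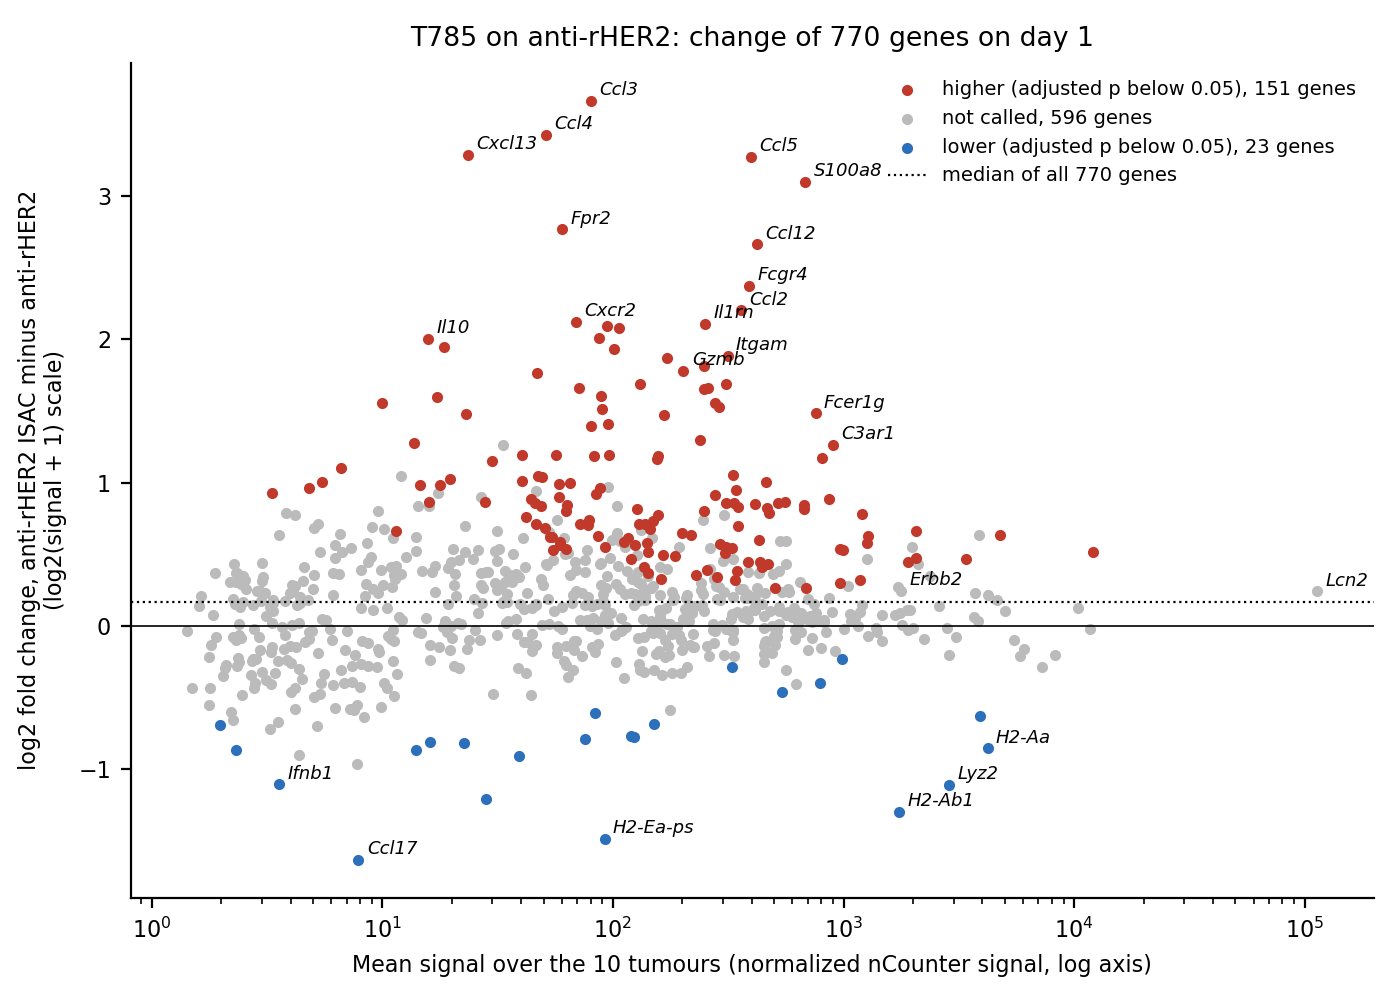
Each point is 1 of 770 genes, with its mean signal over the 10 tumours on a log axis and its log2 fold change, anti-rHER2 ISAC minus anti-rHER2, on the vertical axis. Red points are the 151 genes called higher, blue points the 23 called lower, grey points the rest, and the dotted line is the median of all genes, 0.16. Ccl3 lies highest at 3.67, and H2-Ab1, H2-Aa and Lyz2 are the abundant genes among those called lower.

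Of the receptors that T785 is directed at, Tlr8 was called higher and Tlr7 was not called, and the difference between them was not tested. Tlr8, an endosomal receptor of RNA, had signals of 272, 205, 278, 215 and 249.9 in the anti-rHER2 ISAC tumours, against 152, 128, 146, 201 and 155 in the anti-rHER2 tumours. Its groups did not overlap (log2 fold change 0.64 ± 0.17 SE, limma adjusted p = 0.00957). Tlr7, the other endosomal receptor for single-stranded RNA, had signals of 38.4, 25.7, 35.1, 26.3 and 17.9 in the anti-rHER2 ISAC tumours, against 28.8, 14.9, 24.8, 29.6 and 29.7 in the anti-rHER2 tumours. These groups overlapped and Tlr7 was not called (log2 fold change 0.15 ± 0.27 SE, limma adjusted p = 0.736). With equal medians the log2 fold change of Tlr7 was -0.28 and the call of Tlr8 was lost, so neither value was independent of the scaling. Tlr9, which senses unmethylated DNA in the same compartment, was not called either (log2 fold change 0.62 ± 0.28 SE, limma adjusted p = 0.132), though it was called when anti-rHER2 tumour 4 was left out, at an adjusted p of 0.042.

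Among 24 Toll-like receptor and MyD88 pathway genes with values, 6 were called higher and none lower, 25% of the list against 19.6% of all genes, with a list median of 0.17 against 0.16. Count and median were both close to the background, and the median was negative with equal medians (-0.26), quantile normalization (-0.20) and median-ratio scaling (-0.03). With equal medians 1 gene was called higher and 5 lower, and with quantile normalization 1 higher and 3 lower. Over all genes 61 were called higher and 200 lower with equal medians. Tlr1, a cell surface partner of Tlr2 for bacterial lipopeptides, had the largest fold change of the list. Tlr1 had signals of 148, 85.6, 189.8, 100.1 and 154 in the anti-rHER2 ISAC tumours, against 61.4, 51.6, 61.9, 66.1 and 43.9 in the anti-rHER2 tumours, with no overlap (log2 fold change 1.19 ± 0.23 SE, limma adjusted p = 0.000809). The call of Tlr1 held under every scaling. Myd88, the adaptor shared by most Toll-like receptors, averaged 135 ± 18.5 in anti-rHER2 ISAC tumours and 89.3 ± 6.33 in anti-rHER2 tumours (log2 fold change 0.58 ± 0.11 SE, limma adjusted p = 0.00084). The groups did not overlap for Myd88, but with equal medians and with quantile normalization its call was lost. Tlr6 (log2 fold change 0.62 ± 0.20 SE, limma adjusted p = 0.0365) was called in 4 of the 10 fits that left out a tumour, with adjusted p up to 0.0956. Ly96, the co-receptor of Tlr4, and Irf5, a transcription factor downstream of MyD88, completed the called genes with log2 fold changes of 0.37 and 0.58. Tlr2, Tlr3, Tlr4, Irak1, Irak4 and Traf6 lay between -0.06 and 0.37 and none was called.

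In the NF-kB pathway 5 of 15 genes were called higher (33.3%, against 19.6% of all genes) and none lower, with a median of 0.18. With equal medians 2 were called higher and 5 lower around a median of -0.25, and with quantile normalization 2 higher and 4 lower. Over all genes 61 were called higher and 200 lower with equal medians, around a median of -0.27. Ikbke, a kinase of the interferon and NF-kB arms, had signals of 94.2, 58.2, 124, 77.2 and 85.2 in the anti-rHER2 ISAC tumours, against 48.4, 40.7, 45.4, 37.5 and 40.01 in the anti-rHER2 tumours. Its groups did not overlap (log2 fold change 0.99 ± 0.19 SE, limma adjusted p = 0.000785). Nfkbia, the inhibitor that NF-kB itself induces, averaged 57.8 ± 13.5 in anti-rHER2 ISAC tumours and 35.02 ± 9.04 in anti-rHER2 tumours (log2 fold change 0.71 ± 0.18 SE, limma adjusted p = 0.00967), and its call was lost with equal medians, quantile normalization and median-ratio scaling. Tnfaip3, which encodes the feedback enzyme A20, was at the threshold (log2 fold change 0.55 ± 0.19 SE, limma adjusted p = 0.0448) and was called in 3 of the 10 fits that left out a tumour. Nfkb1, which encodes a subunit of NF-kB, had a log2 fold change of 0.39. The count of genes called higher in this list was 3 without anti-rHER2 tumours 2 or 5, or without anti-rHER2 ISAC tumours 1 or 4.

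Nfkbia and Tnfaip3 are shown with their promoters because both are textbook targets of NF-kB and both were called. The windows run from 250 bases before to 50 bases after the annotated start, as given by RefSeq on GRCm38.p6, on the gene's strand. Nfkbia lies on the minus strand of chromosome 12 at chr12:55492598-55492897 and Tnfaip3 on the minus strand of chromosome 10 at chr10:19015361-19015660. Capitals mark matches to the NF-kB pattern, which is GGG, any 2 bases and TTTCC, on either strand.
Nfkbia: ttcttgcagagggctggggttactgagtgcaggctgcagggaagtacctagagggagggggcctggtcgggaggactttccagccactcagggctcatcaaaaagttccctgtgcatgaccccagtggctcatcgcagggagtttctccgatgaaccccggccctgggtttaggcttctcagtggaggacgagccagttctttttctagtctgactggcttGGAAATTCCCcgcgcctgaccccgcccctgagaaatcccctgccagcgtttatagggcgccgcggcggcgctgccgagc
Tnfaip3: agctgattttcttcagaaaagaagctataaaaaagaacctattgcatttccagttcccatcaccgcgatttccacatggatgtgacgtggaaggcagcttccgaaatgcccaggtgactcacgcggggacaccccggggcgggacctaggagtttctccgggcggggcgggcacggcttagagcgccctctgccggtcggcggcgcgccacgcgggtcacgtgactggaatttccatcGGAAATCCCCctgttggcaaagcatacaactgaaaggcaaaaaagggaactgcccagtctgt
The pattern was found in 1.63% of 32851 mouse promoter windows of this length, in 5 of the 11 pathway genes that had a window, and in 2 of the 3 called ones. The first match lies 29 bases before the start in Nfkbia and 12 bases before it in Tnfaip3. Here and below, a gene counted as matched if any of its windows matched, so shares of genes and of single windows are unlike measures. The patterns searched here and below were chosen with earlier matches known, and a match describes the letters only.

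Fc-gamma receptor genes and their signalling partners were mostly higher in the anti-rHER2 ISAC tumours. Of 9 genes with values, 7 were called higher, 77.8% of the list against 19.6% of all genes, and none lower. The list median was 0.95 and stayed between 0.52 and 0.95 under every scaling. Fcgr4, an activating receptor of mouse macrophages and neutrophils for IgG2 antibodies, had signals of 636, 576, 863, 535 and 655 in the anti-rHER2 ISAC tumours, against 127, 93.3, 123, 166 and 117 in the anti-rHER2 tumours. The groups were widely apart, with a mean 5.21-fold higher in the anti-rHER2 ISAC tumours (log2 fold change 2.38 ± 0.15 SE, limma adjusted p = 2.74e-09). This was the smallest adjusted p of the comparison. Fcer1g, the signalling chain that the activating Fc receptors share, had signals of 1156, 899.9, 1405, 974 and 1151 in the anti-rHER2 ISAC tumours, against 421, 358, 359, 397 and 440.1 in the anti-rHER2 tumours, again without overlap (log2 fold change 1.48 ± 0.14 SE, limma adjusted p = 3.5e-07). Fcgr1, the high-affinity receptor, averaged 619.6 ± 175 in anti-rHER2 ISAC tumours and 301 ± 44.8 in anti-rHER2 tumours (log2 fold change 1.01 ± 0.19 SE, limma adjusted p = 0.000809).

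Of the low-affinity receptors, Fcgr3 was not called and Fcgr2b was called near the threshold. Fcgr3, an activating receptor, averaged 178 ± 50.9 in anti-rHER2 ISAC tumours and 174 ± 40.7 in anti-rHER2 tumours, and its groups overlapped (log2 fold change 0.01 ± 0.21 SE, limma adjusted p = 0.977). Fcgr2b, the inhibitory receptor, averaged 1529 ± 300.4 in anti-rHER2 ISAC tumours and 1023 ± 385 in anti-rHER2 tumours (log2 fold change 0.62 ± 0.21 SE, limma adjusted p = 0.0385), but its call was lost in 8 of the 10 fits that left out a tumour, with adjusted p up to 0.116. Anti-rHER2 tumour 4 stood apart there at 1706, against 807 to 926 in the other anti-rHER2 tumours. Lyn, a Src-family kinase of myeloid and B cells, and Btk, a kinase of B cell and Fc receptor signalling, were called higher with log2 fold changes of 0.95 ± 0.12 SE and 0.80 ± 0.22 SE. Syk, the kinase that binds the activating chain, averaged 143 ± 34.5 in anti-rHER2 ISAC tumours and 115 ± 24.5 in anti-rHER2 tumours and was not called (log2 fold change 0.31 ± 0.20 SE, limma adjusted p = 0.309). Genes of neutrophils and macrophages, which carry these receptors, also had calls in this comparison. Of 17 neutrophil genes 9 were called higher (52.9%) and none lower. Of 22 monocyte and macrophage genes 5 were called higher (22.7%) and 2 lower (9.09%). Over all genes these shares were 19.6% and 2.99%, so the macrophage share of higher calls was near the background. The part of these cells in the Fc receptor values was not tested. The summed signal of the macrophage list was 17904 to 23088 in anti-rHER2 ISAC tumours and 20768 to 25697 in the anti-rHER2 tumours. Linear signals were added, so abundant genes such as Apoe and Lyz2 weigh more in it than Itgam or Msr1. Lyz2 was itself called lower, so the sum does not measure the number of macrophages.

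Genes of CC chemokines that attract monocytes, with their receptors, included Ccl3 and Ccl4, which had the 2 largest fold changes among called genes. Of 17 genes, 9 were called higher (52.9%, against 19.6% of all genes) and none lower (against 2.99%). The list median was 0.83, against 0.16 over all genes, or 0.40 to 0.63 with equal medians, quantile normalization and median-ratio scaling. Ccl3, which draws monocytes and natural killer cells through receptors such as Ccr1, had signals of 128, 122, 268, 128 and 95.2 in the anti-rHER2 ISAC tumours, against 13.02, 2.98, 8.26, 17.8 and 15.5 in the anti-rHER2 tumours. Tumour 3 was the highest of the anti-rHER2 ISAC group, and the lowest of that group was far above the highest anti-rHER2 tumour (log2 fold change 3.67 ± 0.41 SE, limma adjusted p = 1.77e-06). Ccl4, a close relative, had signals of 71.3, 82.2, 153, 91.6 and 72.8 in the anti-rHER2 ISAC tumours, against 12.1, 2.98, 8.26, 6.90 and 10.3 in the anti-rHER2 tumours (log2 fold change 3.43 ± 0.32 SE, limma adjusted p = 3.22e-07). Ccl5, a chemokine of T cells and monocytes, had signals of 946, 436, 1123, 474 and 638 in the anti-rHER2 ISAC tumours, against 79.1, 55.6, 61.1, 67.1 and 85.2 in the anti-rHER2 tumours. Its mean was 10.4-fold higher in the anti-rHER2 ISAC tumours, and the groups did not overlap (log2 fold change 3.28 ± 0.28 SE, limma adjusted p = 1.04e-07).

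The ligands of Ccr2, the receptor by which monocytes leave the bone marrow, were also called higher. Ccl2 had signals of 474, 385, 1152, 436 and 522 in the anti-rHER2 ISAC tumours, against 181, 92.3, 99.9, 129 and 103 in the anti-rHER2 tumours (log2 fold change 2.204 ± 0.27 SE, limma adjusted p = 5.51e-06). The value of 1152.5 in anti-rHER2 ISAC tumour 3 stood apart from the other 4, which were still above every anti-rHER2 tumour. Ccl12, a mouse ligand of the same receptor, had signals of 715, 521, 1074, 499.6 and 803 in the anti-rHER2 ISAC tumours, against 161, 88.4, 106, 187 and 52.9 in the anti-rHER2 tumours (log2 fold change 2.67 ± 0.29 SE, limma adjusted p = 1.22e-06). Ccl7, another ligand, averaged 272 ± 99.8 in anti-rHER2 ISAC tumours and 71.5 ± 14.96 in anti-rHER2 tumours (log2 fold change 1.87 ± 0.24 SE, limma adjusted p = 9.4e-06). The receptor genes Ccr2, at a log2 fold change of 0.04, and Ccr1, at 0.14, were not called. The eosinophil receptor Ccr3 averaged 26.6 ± 13.5 in anti-rHER2 ISAC tumours and 8.01 ± 3.59 in anti-rHER2 tumours (log2 fold change 1.60 ± 0.44 SE, limma adjusted p = 0.0128). Its ligand Ccl11 was called at 0.83, a call lost without anti-rHER2 tumours 2, 3 or 5 or anti-rHER2 ISAC tumour 1, with adjusted p up to 0.0731.

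**Figure D2:**
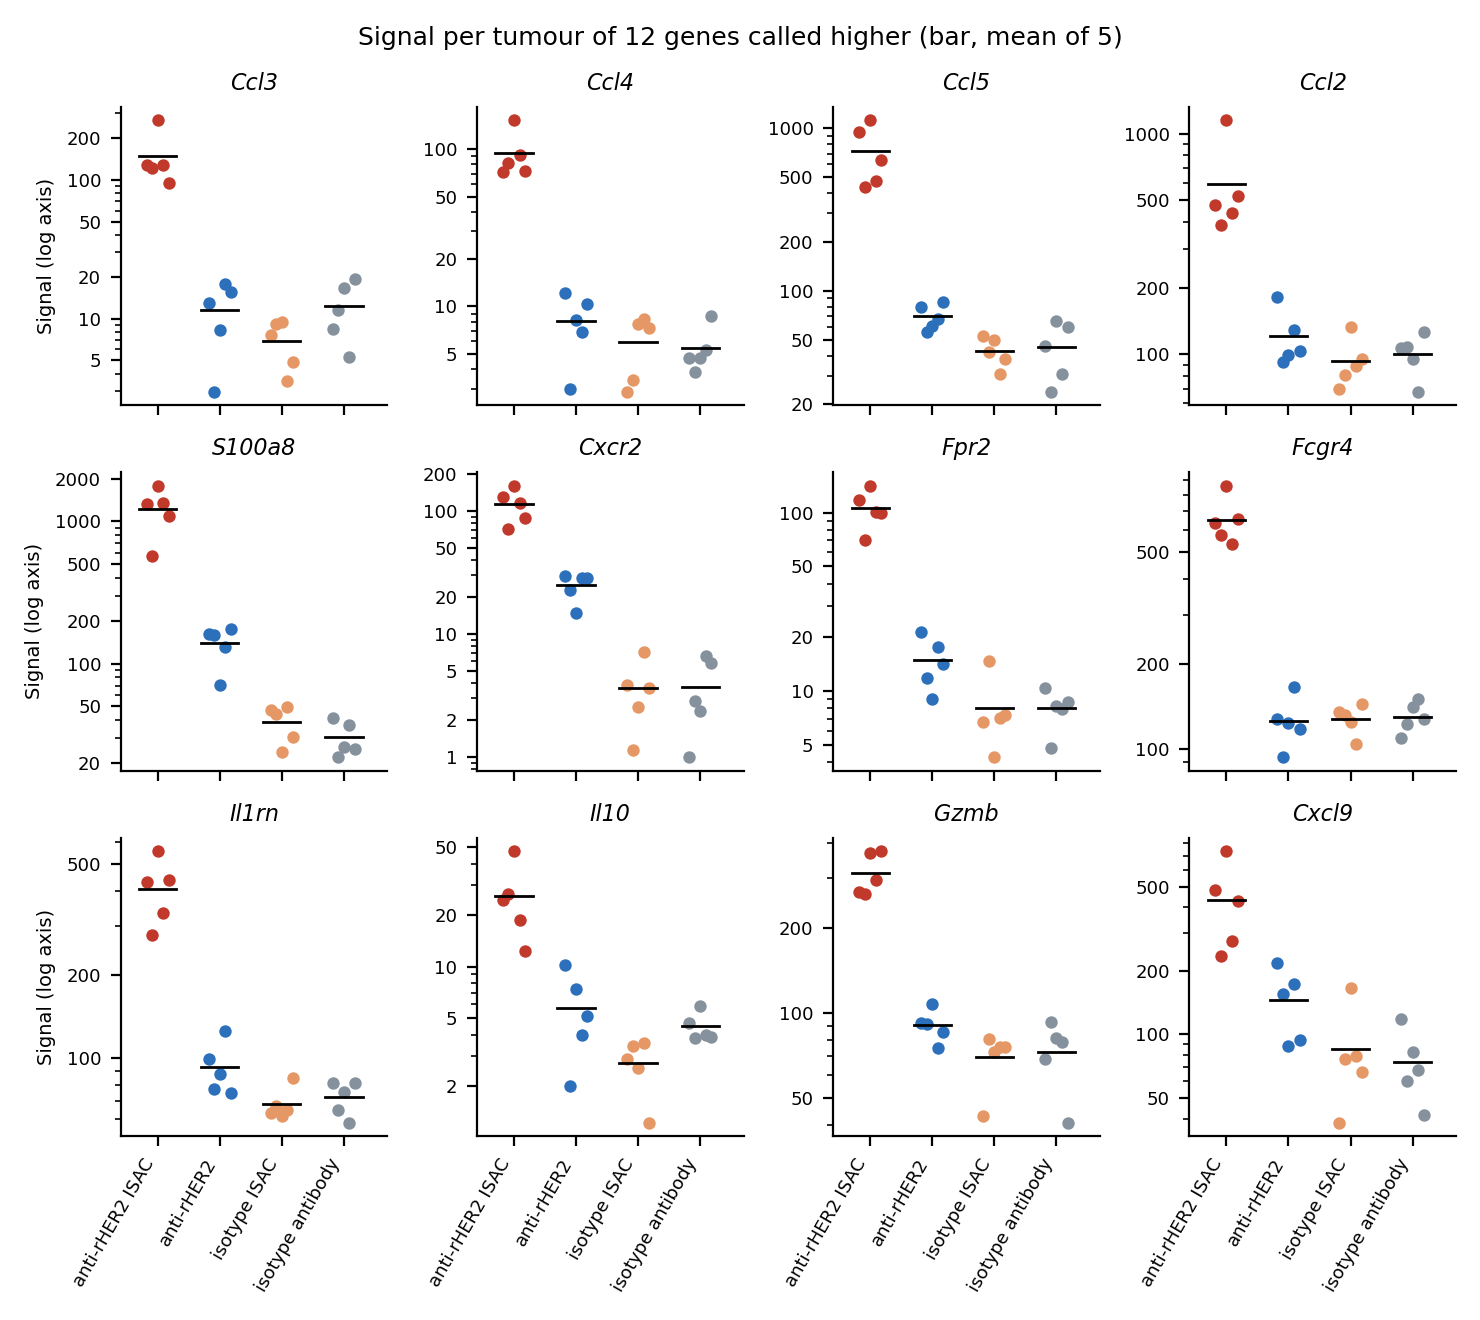
Signals of 12 genes called higher are plotted per tumour on log axes, 1 panel a gene, with the anti-rHER2 ISAC tumours at the left, then anti-rHER2, isotype ISAC and isotype antibody. Points are tumours and bars are means of 5. In each panel every anti-rHER2 ISAC tumour lies above every anti-rHER2 tumour, as for Fcgr4 with 535 to 863 against 93.3 to 166.

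Several receptor and surface protein genes of neutrophils were called higher, while the granule genes Mpo, Elane, Camp and Ltf had low signals. Of 17 genes with values, 9 were called higher (52.9%, against 19.6% of all genes) and none lower, with a median of 0.57, or 0.14 to 0.36 under the scalings with equal medians, median ratios or quantiles, which called 6 to 8 of them higher and 1 or 2 lower. S100a8, a calcium-binding protein abundant in neutrophils and monocytes, had signals of 1335, 574, 1783, 1349 and 1085 in the anti-rHER2 ISAC tumours, against 162, 158, 71.0, 131 and 174 in the anti-rHER2 tumours. Tumour 2 was the lowest of the anti-rHER2 ISAC group and still well above the highest anti-rHER2 tumour (log2 fold change 3.10 ± 0.30 SE, limma adjusted p = 3.5e-07). Fpr2, a formyl peptide receptor that guides neutrophils, had signals of 118, 70.2, 141, 100.1 and 99.7 in the anti-rHER2 ISAC tumours, against 21.4, 11.9, 9.08, 17.8 and 14.2 in the anti-rHER2 tumours (log2 fold change 2.77 ± 0.27 SE, limma adjusted p = 3.5e-07). Cxcr2, the receptor for the neutrophil chemokines, had signals of 129.8, 71.9, 161, 116 and 87.4 in the anti-rHER2 ISAC tumours, against 29.8, 22.8, 14.9, 28.6 and 28.4 in the anti-rHER2 tumours (log2 fold change 2.13 ± 0.36 SE, limma adjusted p = 0.000292). None of these groups overlapped.

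Slc11a1, a metal transporter of phagosomes, averaged 141 ± 38.9 in anti-rHER2 ISAC tumours and 33.6 ± 6.02 in anti-rHER2 tumours (log2 fold change 2.01 ± 0.20 SE, limma adjusted p = 3.72e-07), and Mmp9, a protease stored by neutrophils, averaged 64.01 ± 14.8 in anti-rHER2 ISAC tumours and 30.7 ± 7.61 in anti-rHER2 tumours (log2 fold change 1.04 ± 0.22 SE, limma adjusted p = 0.00203). The receptor for granulocyte colony-stimulating factor, Csf3r, had a log2 fold change of 1.60 ± 0.27 SE, Trem1 of 1.28 ± 0.43 SE and the oxidase subunit gene Ncf4 of 0.57 ± 0.14 SE. The granule genes Mpo, Elane, Camp and Ltf, which are transcribed in the bone marrow, had mean signals of 1.56 to 3.53 in anti-rHER2 ISAC tumours and 2.23 to 5.19 in the anti-rHER2 tumours, and none was called. Lcn2, which neutrophils and mammary tumour cells both make, had signals of 125589, 134357, 96184, 132709 and 126770.0 in the anti-rHER2 ISAC tumours, against 113104, 115005, 93395, 101295 and 96391 in the anti-rHER2 tumours. It was not called (log2 fold change 0.24 ± 0.10 SE, limma adjusted p = 0.116), but it was with anti-rHER2 ISAC tumour 3 left out, at 0.33 and an adjusted p of 0.0255.

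No chemokine that acts on Cxcr2 was called higher. Of 10 ligand and granulocyte factor genes none was called higher, against 19.6% of all genes, and 1 was called lower (10%, against 2.99%). The list median was -0.10, against 0.16 over all genes. Cxcl15, a mouse chemokine known from lung, was called lower, with signals of 9.14, 17.1, 11.3, 15.3 and 5.60 in the anti-rHER2 ISAC tumours, against 18.6, 16.9, 17.3, 19.7 and 29.7 in the anti-rHER2 tumours (log2 fold change -0.81 ± 0.25 SE, limma adjusted p = 0.0261). That call was lost without anti-rHER2 tumour 5 or anti-rHER2 ISAC tumours 1 or 5, with adjusted p up to 0.0776. Cxcl1 averaged 14.5 ± 3.47 in anti-rHER2 ISAC tumours and 17.6 ± 5.53 in anti-rHER2 tumours, Cxcl5 averaged 22.4 ± 6.84 in anti-rHER2 ISAC tumours and 18.6 ± 6.58 in anti-rHER2 tumours, and Csf3, the granulocyte growth factor, averaged 18.1 ± 2.78 in anti-rHER2 ISAC tumours and 22.9 ± 7.47 in anti-rHER2 tumours. Cxcl2 had signals of 9.33 or less in all 10 tumours.

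Monocyte and macrophage markers had calls in both directions. Of 22 genes, 5 were called higher (22.7%, near the 19.6% of all genes) and 2 lower (9.09%, against 2.99%), with a median of 0.33. With equal medians 3 were called higher and 6 lower around a median of -0.10. Over all genes 61 were called higher and 200 lower, around a median of -0.27. Itgam, the integrin chain CD11b of myeloid cells, had signals of 497, 373, 646, 447 and 515 in the anti-rHER2 ISAC tumours, against 126, 169, 109.8, 116 and 143 in the anti-rHER2 tumours. The groups lay far apart (log2 fold change 1.89 ± 0.18 SE, limma adjusted p = 3.5e-07). Msr1, a scavenger receptor of macrophages, had signals of 435, 301, 593, 354 and 397 in the anti-rHER2 ISAC tumours, against 143, 136, 136, 169.6 and 108 in the anti-rHER2 tumours (log2 fold change 1.55 ± 0.17 SE, limma adjusted p = 1.17e-06). Cd68, a lysosomal protein of macrophages, averaged 864 ± 143 in anti-rHER2 ISAC tumours and 480.5 ± 80.7 in anti-rHER2 tumours (log2 fold change 0.84 ± 0.15 SE, limma adjusted p = 0.000317). Emr1, which encodes the macrophage marker F4/80, averaged 640.4 ± 181 in anti-rHER2 ISAC tumours and 415 ± 62.1 in anti-rHER2 tumours and was not called (log2 fold change 0.59 ± 0.22 SE, limma adjusted p = 0.059). Cd14 and Mrc1 were not called, with log2 fold changes of -0.04 and 0.24.

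Lyz2, the lysozyme of macrophages and neutrophils, was called lower. Lyz2 had signals of 2089, 1229, 2185, 1786 and 1752 in the anti-rHER2 ISAC tumours, against 3803, 3439, 3440.0, 3261 and 5641 in the anti-rHER2 tumours. All anti-rHER2 ISAC tumours were below all anti-rHER2 tumours, and the mean of the anti-rHER2 tumours was 2.17-fold higher (log2 fold change -1.11 ± 0.20 SE, limma adjusted p = 0.000514). Csf1r, the receptor for the macrophage growth factor, averaged 683 ± 107 in anti-rHER2 ISAC tumours and 898 ± 105 in anti-rHER2 tumours (log2 fold change -0.40 ± 0.14 SE, limma adjusted p = 0.0472). Chil3, a chitinase-like protein of mouse macrophages, spread widely within both groups, with signals of 240.5, 122, 72.2, 73.8 and 203 in the anti-rHER2 ISAC tumours, against 26.1, 35.7, 4.13, 136 and 32.3 in the anti-rHER2 tumours. Its call (log2 fold change 2.096 ± 0.73 SE, limma adjusted p = 0.0468) was lost in 8 of the 10 fits that left out a tumour, with adjusted p up to 0.146. Marco had a log2 fold change of 0.93 from signals of 6.40 or less. The count of members called higher was 3 without anti-rHER2 tumours 1 or 2, or without anti-rHER2 ISAC tumours 1, 3 or 5, and that of members called lower was 1 in 7 of the 10 fits.

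Dendritic cell markers were likewise divided, with 3 of 17 called higher (17.6%, against 19.6% of all genes) and 4 lower (23.5%, against 2.99%). Ccl17, a T cell chemokine made by dendritic cells, had signals of 1.00, 5.14, 2.06, 4.24 and 3.36 in the anti-rHER2 ISAC tumours, against 26.1, 6.95, 7.43, 14.8 and 7.74 in the anti-rHER2 tumours. The groups did not overlap and the log2 fold change was the lowest of the called genes (log2 fold change -1.64 ± 0.43 SE, limma adjusted p = 0.00993), at signals that rest on few counts. Cd83, a protein of mature dendritic cells, averaged 88.1 ± 24.999 in anti-rHER2 ISAC tumours and 150.3 ± 44.9 in anti-rHER2 tumours (log2 fold change -0.77 ± 0.24 SE, limma adjusted p = 0.0274). The lectins Clec4n (dectin-2) and Clec7a (dectin-1), which bind fungal sugars, were called lower, with log2 fold changes of -0.79 ± 0.21 SE and -0.78 ± 0.26 SE. In whole counts Clec7a was 50 to 140 in anti-rHER2 ISAC and 107 to 208 in anti-rHER2 tumours. It was 26 to 69 under isotype ISAC and 38 to 56 under isotype antibody, and differences from these groups were not tested. Clec4a2, an inhibitory lectin of myeloid cells, was higher, with signals of 237, 199, 311, 200.2 and 280.1 in the anti-rHER2 ISAC tumours, against 90.2, 62.5, 87.5, 101 and 98.1 in the anti-rHER2 tumours (log2 fold change 1.47 ± 0.19 SE, limma adjusted p = 1.34e-05). Ccr7, by which dendritic cells reach lymph nodes, averaged 41.6 ± 13.4 in anti-rHER2 ISAC tumours and 18.2 ± 7.04 in anti-rHER2 tumours (log2 fold change 1.15 ± 0.30 SE, limma adjusted p = 0.00943), and Itgax, the CD11c chain, averaged 99.1 ± 12.9 in anti-rHER2 ISAC tumours and 59.1 ± 8.09 in anti-rHER2 tumours (log2 fold change 0.74 ± 0.17 SE, limma adjusted p = 0.00375). Xcr1 and Flt3, which mark cross-presenting and progenitor dendritic cells, averaged 8.82 and 8.97 in anti-rHER2 ISAC tumours and 11.6 and 10.1 in the anti-rHER2 tumours, and neither was called. The 4 lower calls became 2 without anti-rHER2 tumour 5 or anti-rHER2 ISAC tumour 2.

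Of 9 genes of the MHC class II list with values, 6 were called lower (66.7%, against 2.99% of all genes) and none higher, with a median of -0.63. H2-Dma, another class II chaperone gene with values, was not on the list. The median was negative under every scaling, between -0.63 and -1.07, with 6 or 7 genes called lower, and 5 or 6 were called lower in each of the 10 fits that left out a tumour. H2-Ab1, a beta chain of the class II molecule that shows peptides to CD4 T cells, had signals of 1191, 904, 1264, 909 and 761 in the anti-rHER2 ISAC tumours, against 2845, 1991, 1980.4, 3302 and 2314 in the anti-rHER2 tumours. The highest anti-rHER2 ISAC tumour stayed below the lowest anti-rHER2 tumour, and the mean of the anti-rHER2 tumours was 2.47-fold higher (log2 fold change -1.30 ± 0.21 SE, limma adjusted p = 0.000129). H2-Aa, the alpha chain partner, had signals of 3794, 2462, 3689.6, 2650.5 and 2276 in the anti-rHER2 ISAC tumours, against 6049, 4339, 4283, 8152 and 4451 in the anti-rHER2 tumours, also without overlap (log2 fold change -0.86 ± 0.23 SE, limma adjusted p = 0.0102). H2-Ea-ps, named as a pseudogene of the class II E alpha chain, had signals of 74.98, 25.7, 35.1, 53.4 and 54.9 in the anti-rHER2 ISAC tumours, against 149.8, 92.3, 122, 203 and 108 in the anti-rHER2 tumours (log2 fold change -1.49 ± 0.28 SE, limma adjusted p = 0.000642).

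H2-Eb1, the class II E beta chain, averaged 17.2 ± 9.18 in anti-rHER2 ISAC tumours and 39.2 ± 13.1 in anti-rHER2 tumours with overlapping groups (log2 fold change -1.21 ± 0.34 SE, limma adjusted p = 0.014). Cd74, the invariant chain that guards class II molecules on their way to the endosome, averaged 3022 ± 570.2 in anti-rHER2 ISAC tumours and 4754 ± 1311 in anti-rHER2 tumours (log2 fold change -0.63 ± 0.20 SE, limma adjusted p = 0.0274). Ciita, the master transcription factor of class II genes, had signals of 64.01, 60.8, 96.99, 57.7 and 53.8 in the anti-rHER2 ISAC tumours, against 121, 103, 92.5, 104 and 83.9 in the anti-rHER2 tumours. Anti-rHER2 ISAC tumour 3 lay within the anti-rHER2 range, and the other 4 lay below it (log2 fold change -0.61 ± 0.14 SE, limma adjusted p = 0.00517). The chaperone genes H2-DMb1, H2-DMb2 and H2-Ob were not called, at -0.33, -0.10 and -0.28, and H2-DMb1 and H2-Ob had mean signals below 10 in both groups.

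H2-Aa and H2-Eb1 are shown with their promoters because class II promoters share a conserved set of boxes that Ciita acts through. Both windows are on chromosome 17 of GRCm38.p6 as RefSeq gives them, H2-Aa on the minus strand at chr17:34287774-34288073 and H2-Eb1 on the plus strand at chr17:34305617-34305916. Capitals mark the Y box pattern CTGATTGG, searched on both strands.
H2-Aa: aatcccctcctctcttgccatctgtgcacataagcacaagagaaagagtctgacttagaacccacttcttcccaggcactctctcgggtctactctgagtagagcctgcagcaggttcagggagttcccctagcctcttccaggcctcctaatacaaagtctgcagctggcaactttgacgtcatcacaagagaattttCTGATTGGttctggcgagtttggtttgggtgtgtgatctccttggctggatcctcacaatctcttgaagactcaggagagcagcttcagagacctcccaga
H2-Eb1: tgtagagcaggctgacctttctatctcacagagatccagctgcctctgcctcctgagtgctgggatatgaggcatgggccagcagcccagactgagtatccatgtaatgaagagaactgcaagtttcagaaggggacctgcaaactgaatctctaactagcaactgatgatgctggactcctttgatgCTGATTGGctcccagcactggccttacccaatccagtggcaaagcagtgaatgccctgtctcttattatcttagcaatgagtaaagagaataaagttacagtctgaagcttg
The match lies 51 bases before the start in H2-Aa and 62 bases before it in H2-Eb1. The pattern was found in 4.1% of the 32851 windows and in 2 of the 5 class II genes that had a window, which were also the 2 called ones among them.

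**Figure D3:**
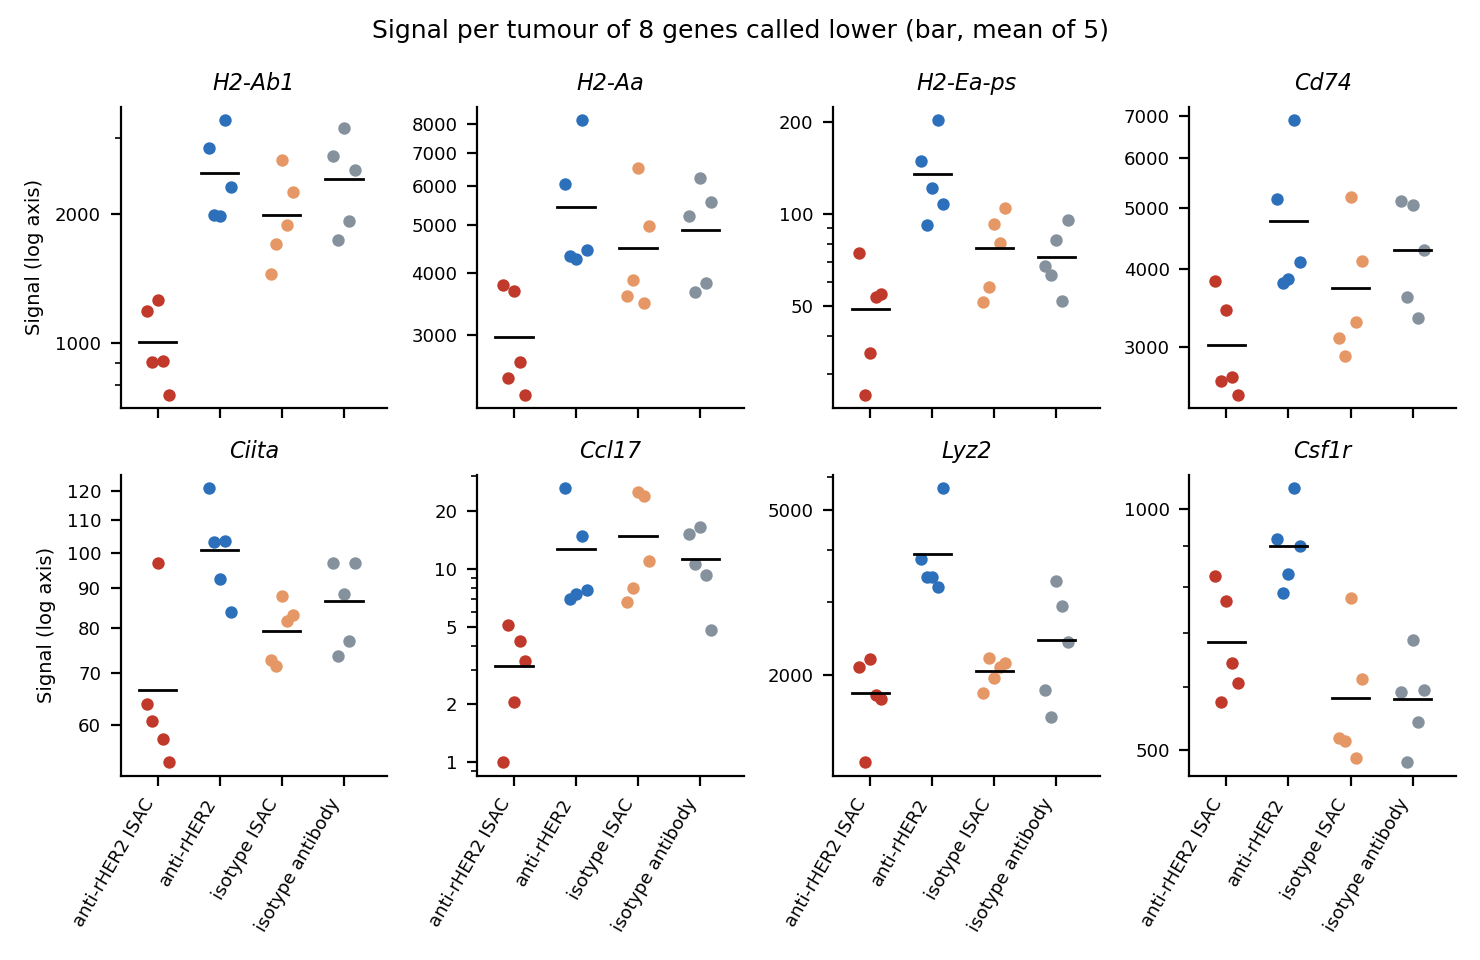
Signals of 8 genes called lower are plotted per tumour on log axes, 1 panel a gene, with the anti-rHER2 ISAC tumours at the left, then anti-rHER2, isotype ISAC and isotype antibody. Points are tumours and bars are means of 5. H2-Ab1 ran from 761 to 1264 in anti-rHER2 ISAC tumours and from 1980 to 3302 in the anti-rHER2 tumours, while Csf1r, Cd74 and Ciita overlapped between these groups.

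Class I molecules present peptides to CD8 T cells. Of 15 class I and peptide loading genes, 3 were called higher (20.0%, close to the 19.6% of all genes) and none lower, with a median of 0.53. With equal medians none was called higher and 1 lower around a median of 0.10, against 61 higher and 200 lower over all genes. With median-ratio scaling 1 was called higher and 1 lower, and with quantile normalization 4 higher and 1 lower. H2-D1 averaged 5792 ± 1274 in anti-rHER2 ISAC tumours and 3706 ± 624 in anti-rHER2 tumours (log2 fold change 0.63 ± 0.20 SE, limma adjusted p = 0.0323), Psmb8, a subunit of the immunoproteasome, averaged 721 ± 163 in anti-rHER2 ISAC tumours and 394 ± 83.4 in anti-rHER2 tumours (log2 fold change 0.86 ± 0.25 SE, limma adjusted p = 0.0208), and Tapbp, which loads peptides, averaged 1144 ± 215 in anti-rHER2 ISAC tumours and 784 ± 102 in anti-rHER2 tumours (log2 fold change 0.53 ± 0.15 SE, limma adjusted p = 0.016). H2-K1 was not called (log2 fold change 0.63 ± 0.25 SE, limma adjusted p = 0.0773). H2-K1 and H2-D1 are close in sequence, and how far their probes tell them apart is not stated in the sources used here. These calls depended on single tumours. The list had 5 genes called higher without anti-rHER2 tumour 1 or anti-rHER2 ISAC tumour 4, 1 without anti-rHER2 tumour 2, and none without anti-rHER2 ISAC tumours 1 or 3.

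Co-stimulatory genes gave 3 higher calls (16.7%, against 19.6% of all genes) and 1 lower (5.56%, against 2.99%) among 18, with a median of 0.16, as over all genes. With equal medians 1 was called higher and 3 lower, against 61 higher and 200 lower over all genes. Cd40, a receptor by which T cells activate myeloid cells, had signals of 64.9, 19.7, 59.8, 38.2 and 40.3 in the anti-rHER2 ISAC tumours, against 32.6, 23.8, 31.4, 35.5 and 23.2 in the anti-rHER2 tumours. It was not called (log2 fold change 0.50 ± 0.24 SE, limma adjusted p = 0.153), although without anti-rHER2 ISAC tumour 2, the lowest of its group, it reached 0.76 with an adjusted p of 0.00506. Cd80 and Cd86, the ligands of CD28, were not called, at 0.28 ± 0.24 SE and -0.14 ± 0.21 SE. Slamf7, a receptor of macrophages and natural killer cells, averaged 78.4 ± 21.4 in anti-rHER2 ISAC tumours and 38.2 ± 6.80 in anti-rHER2 tumours (log2 fold change 0.99 ± 0.21 SE, limma adjusted p = 0.00167). Cd48, a ligand of natural killer cell receptors, was called at 0.67, and Cd27 at 1.01 from signals of 11.4 or less, a call lost in 6 of the 10 fits that left out a tumour. Tnfsf18, the ligand of the GITR receptor, was called lower at -0.91, a call lost in 9 of those 10 fits.

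Genes that answer to type I interferon had 11 of 25 members called higher (44% against 19.6%), none lower and a median of 0.51. With equal medians 4 were called higher and 3 lower around a median of 0.08, while 61 of all genes were called higher and 200 lower around a median of -0.27. The list median lay 0.35 above that of all genes on both scales. Ifitm1, a membrane protein that blocks virus entry, had signals of 159, 101, 228, 136 and 182 in the anti-rHER2 ISAC tumours, against 53.96, 38.7, 28.1, 36.5 and 47.8 in the anti-rHER2 tumours (log2 fold change 1.93 ± 0.26 SE, limma adjusted p = 2.23e-05). Ifit3, an antiviral protein induced by interferon, had signals of 1619, 914, 999.8, 902 and 1088 in the anti-rHER2 ISAC tumours, against 883, 311, 508, 512 and 352 in the anti-rHER2 tumours. Tumour 1 was the highest in each group, and the groups were apart by a narrow margin (log2 fold change 1.17 ± 0.31 SE, limma adjusted p = 0.0106). Oasl1 averaged 115 ± 24.7 in anti-rHER2 ISAC tumours and 51.5 ± 17.2 in anti-rHER2 tumours (log2 fold change 1.18 ± 0.23 SE, limma adjusted p = 0.000785), and Irf7, the factor that amplifies interferon production, averaged 667 ± 189 in anti-rHER2 ISAC tumours and 369 ± 106 in anti-rHER2 tumours (log2 fold change 0.85 ± 0.26 SE, limma adjusted p = 0.0241). The call of Irf7 was lost without anti-rHER2 tumours 2 or 5 or anti-rHER2 ISAC tumours 1 or 3. Isg15, a ubiquitin-like protein, was called at 0.80 ± 0.26 SE, and Ifit1 was not called at 0.74 ± 0.30 SE.

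The size of this list depended on single tumours. It held 5 higher calls without anti-rHER2 tumours 2 or 5 or anti-rHER2 ISAC tumour 1, 6 without anti-rHER2 ISAC tumour 3, 7 without anti-rHER2 ISAC tumour 5, and up to 13 otherwise. With equal medians it had 4 higher and 3 lower calls and a median of 0.08, against -0.27 over all genes. Ccl5, counted above among the chemokines, is 1 of the 11. The interferon genes Ifnb1, Ifna1 and Ifna4 had mean signals of at most 5.74 in either group. Ifnb1, the first interferon made after receptor triggering, had signals of 1.00, 1.71, 1.03, 3.39 and 2.24 in the anti-rHER2 ISAC tumours, against 5.58, 1.99, 5.78, 7.89 and 5.16 in the anti-rHER2 tumours. It was called lower (log2 fold change -1.11 ± 0.36 SE, limma adjusted p = 0.0333), but the values rest on a few counts and the call was lost in 6 of the 10 fits that left out a tumour. Ifna1 and Ifna4 were not called.

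Ifit3 and Isg15 are shown because both are textbook interferon-stimulated genes and both were called. The windows are from RefSeq on GRCm38.p6, Ifit3 on the plus strand of chromosome 19 at chr19:34583279-34583578 and Isg15 on the minus strand of chromosome 4 at chr4:156200769-156201068. Capitals mark matches to TTTC, any 2 bases and TTTC, on either strand, and overlapping matches run together.
Ifit3: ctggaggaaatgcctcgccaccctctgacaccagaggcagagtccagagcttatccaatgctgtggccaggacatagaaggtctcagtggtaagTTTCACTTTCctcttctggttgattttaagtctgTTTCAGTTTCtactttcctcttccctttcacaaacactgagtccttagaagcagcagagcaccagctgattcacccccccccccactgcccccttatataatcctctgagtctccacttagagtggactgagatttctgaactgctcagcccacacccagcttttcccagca
Isg15: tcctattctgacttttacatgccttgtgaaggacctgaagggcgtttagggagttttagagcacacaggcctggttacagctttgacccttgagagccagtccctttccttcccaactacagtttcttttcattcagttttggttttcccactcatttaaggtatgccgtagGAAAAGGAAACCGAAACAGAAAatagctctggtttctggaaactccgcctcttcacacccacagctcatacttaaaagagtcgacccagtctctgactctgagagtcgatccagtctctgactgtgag
Ifit3 has 2 matches and Isg15 has 3. The pattern was found in 3.44% of the 32851 windows, in 9 of the 17 type I interferon response genes with a window, and in 4 of the 8 called ones.

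Of 17 genes that answer to interferon-gamma, 3 were called higher (17.6%, against 19.6% of all genes) and 1, Ciita, lower (5.88%, against 2.99%), with a median of 0.47. With equal medians 3 were called higher and 2 lower around a median of 0.04. Over all genes 61 were called higher and 200 lower, around a median of -0.27. Cxcl9, a chemokine for T cells and natural killer cells, had signals of 482, 235, 736, 277 and 426 in the anti-rHER2 ISAC tumours, against 217, 155, 88.3, 173 and 94.2 in the anti-rHER2 tumours (log2 fold change 1.53 ± 0.38 SE, limma adjusted p = 0.00704). Cd274, which encodes the checkpoint ligand PD-L1, averaged 212 ± 48.5 in anti-rHER2 ISAC tumours and 97.7 ± 39.03 in anti-rHER2 tumours (log2 fold change 1.16 ± 0.30 SE, limma adjusted p = 0.00918). The third is Fcgr1. The related chemokine Cxcl10 was not called, with signals of 150.0, 98.5, 163, 155 and 167 in the anti-rHER2 ISAC tumours, against 188, 79.4, 91.6, 106 and 76.2 in the anti-rHER2 tumours (log2 fold change 0.50 ± 0.31 SE, limma adjusted p = 0.299), nor was Cxcl11 (log2 fold change 0.97 ± 0.41 SE, limma adjusted p = 0.104). Cxcl11 was called without anti-rHER2 tumour 1, at an adjusted p of 0.0229, and the list then had 6 higher calls, against 5 without anti-rHER2 ISAC tumour 2. Ifng itself averaged 6.55 ± 2.63 in anti-rHER2 ISAC tumours and 3.03 ± 1.93 in anti-rHER2 tumours, and its call (log2 fold change 0.96 ± 0.33 SE, limma adjusted p = 0.0449) was lost in 6 of the 10 fits that left out a tumour.

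Inflammatory cytokine genes as a list had a median below that of all genes, -0.03, with 2 of 17 called higher (11.8%, against 19.6% of all genes) and none lower. With equal medians none was called higher and 7 lower around a median of -0.46, and with quantile normalization 1 higher and 4 lower. Over all genes 61 were called higher and 200 lower with equal medians, around a median of -0.27. Tnf, a product of activated macrophages, had signals of 7.32, 5.99, 23.7, 7.63 and 4.48 in the anti-rHER2 ISAC tumours, against 2.79, 2.98, 4.13, 2.96 and 3.87 in the anti-rHER2 tumours. The groups were apart by less than 1 unit of signal (log2 fold change 1.10 ± 0.35 SE, limma adjusted p = 0.0333), and the call was lost in 5 of the 10 fits that left out a tumour. The count for this list was 1 without anti-rHER2 tumours 1 or 2 or anti-rHER2 ISAC tumours 1 or 3. Ebi3, a subunit of the cytokines IL-27 and IL-35, averaged 63.2 ± 12.1 in anti-rHER2 ISAC tumours and 34.7 ± 5.18 in anti-rHER2 tumours (log2 fold change 0.84 ± 0.20 SE, limma adjusted p = 0.00603). Il12b, the shared subunit of IL-12 and IL-23, had signals of 33.8, 17.98, 26.8, 9.33 and 29.1 in the anti-rHER2 ISAC tumours, against 11.2, 6.95, 9.08, 17.8 and 11.6 in the anti-rHER2 tumours. It missed the threshold (log2 fold change 0.93 ± 0.33 SE, limma adjusted p = 0.0525), and it was called by edgeR on the recovered counts, at an adjusted p of 0.0269, and without anti-rHER2 tumour 4 or anti-rHER2 ISAC tumour 4. Il6 averaged 8.76 ± 2.62 in anti-rHER2 ISAC tumours and 5.92 ± 3.08 in anti-rHER2 tumours and Il1b 140.0 ± 34.7 in anti-rHER2 ISAC tumours and 213 ± 69.8 in anti-rHER2 tumours, and neither was called (0.54 and -0.59 on the log2 scale).

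Antagonists of these cytokines and feedback regulators had 9 of 16 genes called higher (56.2%, against 19.6% of all genes), none lower, and a median of 0.51. Il1rn, the natural antagonist of the interleukin-1 receptor, had signals of 433, 278, 558, 334 and 440.3 in the anti-rHER2 ISAC tumours, against 99.5, 77.5, 87.5, 125 and 74.9 in the anti-rHER2 tumours. The groups were widely apart (log2 fold change 2.11 ± 0.18 SE, limma adjusted p = 8.1e-08). Il10, an anti-inflammatory cytokine, had signals of 24.7, 26.5, 47.5, 18.7 and 12.3 in the anti-rHER2 ISAC tumours, against 10.2, 1.99, 7.43, 3.95 and 5.16 in the anti-rHER2 tumours (log2 fold change 2.00 ± 0.33 SE, limma adjusted p = 0.000211). The groups were apart, with anti-rHER2 ISAC tumour 5 and anti-rHER2 tumour 1 next to each other. Socs3, which restrains cytokine receptor signalling, had signals of 37.5, 65.9, 53.6, 65.3 and 59.4 in the anti-rHER2 ISAC tumours, against 30.7, 27.8, 17.3, 23.7 and 20.6 in the anti-rHER2 tumours (log2 fold change 1.20 ± 0.22 SE, limma adjusted p = 0.000514). Il1r2, a decoy receptor for interleukin-1, was called at 1.02, a call lost in 7 of the 10 fits that left out a tumour. Arg2, Cd200r1 and Tgfb1 were called at 0.98, 0.86 and 0.44, and Nfkbia and Tnfaip3 are given above. Under equal medians 3 of these genes were called higher and 1 lower, against 61 higher and 200 lower over all genes.

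The cytotoxic granule genes Gzma, Gzmb and Prf1 were called higher, while the granule genes Gzmk and Gzmm and the natural killer cell receptors Ncr1, Klrd1 and Klrk1 were not called. Of 31 cytotoxic and natural killer cell genes, 6 were called higher (19.4%, close to the 19.6% of all genes) and none lower, with a median of 0.17 that was negative with equal medians (-0.26), quantile normalization (-0.12) and median-ratio scaling (-0.03). Gzmb, a serine protease of killer cell granules, had signals of 267, 263, 369, 296 and 374 in the anti-rHER2 ISAC tumours, against 92.1, 91.3, 107, 74.96 and 85.2 in the anti-rHER2 tumours (log2 fold change 1.78 ± 0.20 SE, limma adjusted p = 2.62e-06). Gzma, another granule protease, had signals of 322, 247, 509.7, 366 and 440.3 in the anti-rHER2 ISAC tumours, against 87.5, 111, 122, 86.8 and 199 in the anti-rHER2 tumours (log2 fold change 1.65 ± 0.32 SE, limma adjusted p = 0.000893). Prf1, which encodes the pore-forming perforin, had signals of 102, 59.1, 124, 119.6 and 142 in the anti-rHER2 ISAC tumours, against 27.9, 26.8, 30.5, 31.6 and 50.3 in the anti-rHER2 tumours (log2 fold change 1.66 ± 0.37 SE, limma adjusted p = 0.00357). For all 3 genes every anti-rHER2 ISAC tumour was above every anti-rHER2 tumour. Ncr1, a receptor that defines natural killer cells, averaged 139 ± 41.4 in anti-rHER2 ISAC tumours and 133 ± 29.7 in anti-rHER2 tumours and was not called (log2 fold change 0.05 ± 0.22 SE, limma adjusted p = 0.905), and its sign turned under the same 3 scalings. Klrd1 and Klrk1, receptors of the same cells, were not called at 0.39 ± 0.28 SE and 0.29 ± 0.23 SE.

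The other called genes of that list were 3 members of the Ly49 receptor family, Klra17, Klra2 and Klra5, some of which mouse myeloid cells also carry. Klra17 averaged 139 ± 20.6 in anti-rHER2 ISAC tumours and 52.3 ± 12.2 in anti-rHER2 tumours (log2 fold change 1.41 ± 0.22 SE, limma adjusted p = 9.38e-05), and Klra2 averaged 362 ± 53.7 in anti-rHER2 ISAC tumours and 195 ± 48.2 in anti-rHER2 tumours (log2 fold change 0.91 ± 0.22 SE, limma adjusted p = 0.0067). Members of this family are similar in sequence, and how far the probes separate them is not stated in the sources used here.

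T cell markers gave 1 higher call, Cd27, among 24 genes (4.17%, against 19.6% of all genes), and no lower call, with a median of 0.25. With equal medians none was called higher and 3 lower, against 61 higher and 200 lower over all genes. Cd3e averaged 13.8 ± 4.47 in anti-rHER2 ISAC tumours and 10.3 ± 2.84 in anti-rHER2 tumours, Cd4 averaged 36.4 ± 6.42 in anti-rHER2 ISAC tumours and 52.3 ± 14.1 in anti-rHER2 tumours and Cd8a averaged 6.03 ± 2.85 in anti-rHER2 ISAC tumours and 7.20 ± 1.99 in anti-rHER2 tumours, none of them called. Summed over the list, the signal was 1658 to 2061 in anti-rHER2 ISAC tumours and 1616 to 1750.5 in the anti-rHER2 tumours. The call of Cd27 was lost without anti-rHER2 tumours 2, 3 or 5 or anti-rHER2 ISAC tumours 1, 2 or 3. Il2ra, the high-affinity chain of the interleukin-2 receptor, was called among 13 checkpoint genes with signals of 75.9, 37.7, 94.9, 48.3 and 96.4 in the anti-rHER2 ISAC tumours, against 54.9, 14.9, 11.6, 22.7 and 10.3 in the anti-rHER2 tumours (log2 fold change 1.77 ± 0.50 SE, limma adjusted p = 0.0162), along with Cd274. Anti-rHER2 tumour 1 lay within the anti-rHER2 ISAC range for Il2ra. The 2 higher calls were 15.4% of the checkpoint genes, against 19.6% of all genes, and none was called lower. Pdcd1, Lag3, Tigit and Havcr2, inhibitory receptors of T cells, were not called, at 0.38, 0.01, 0.41 and -0.02.

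Among 17 B cell genes 3 were called higher (17.6%, near the 19.6% of all genes) and 1 lower (5.88%, against 2.99%). Of those called higher, Cxcl13 and Pou2f2 are also made by other cells. Cxcl13, a chemokine that attracts B cells, had signals of 28.4, 33.4, 45.4, 30.5 and 78.4 in the anti-rHER2 ISAC tumours, against 7.44, 1.00, 2.48, 1.97 and 6.45 in the anti-rHER2 tumours. The groups were widely apart (log2 fold change 3.29 ± 0.41 SE, limma adjusted p = 6.5e-06). Pou2f2, the transcription factor Oct-2, had signals of 219, 170.4, 222, 176 and 212 in the anti-rHER2 ISAC tumours, against 69.8, 47.7, 59.4, 60.2 and 69.7 in the anti-rHER2 tumours, a narrow spread in both groups (log2 fold change 1.69 ± 0.13 SE, limma adjusted p = 3.77e-08). Cd79b, a chain of the B cell receptor complex, averaged 34.3 ± 5.38 in anti-rHER2 ISAC tumours and 11.7 ± 2.18 in anti-rHER2 tumours (log2 fold change 1.48 ± 0.26 SE, limma adjusted p = 0.000317). The defining B cell genes Ms4a1 and Cd79a averaged 3.60 and 2.87 in anti-rHER2 ISAC tumours and 2.396 and 2.09 in the anti-rHER2 tumours, near the floor of 1. Blk was called lower with signals of 5.16 or less in all 10 tumours, a call lost in 7 of the 10 fits that left out a tumour.

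Of 32 complement genes 9 were called higher (28.1%, against 19.6% of all genes) and 2 lower (6.25%, against 2.99%), with a median of 0.27. With equal medians 4 were called higher and 6 lower, against 61 higher and 200 lower over all genes. C5ar1 and C3ar1 encode the receptors for the fragments that attract leukocytes. C5ar1 had signals of 425, 265, 557, 322 and 393 in the anti-rHER2 ISAC tumours, against 108, 111, 117, 186 and 94.2 in the anti-rHER2 tumours (log2 fold change 1.66 ± 0.23 SE, limma adjusted p = 3.24e-05), and C3ar1 had signals of 1394, 956, 1677, 1152 and 1219 in the anti-rHER2 ISAC tumours, against 589.8, 445, 479, 620.4 and 501 in the anti-rHER2 tumours (log2 fold change 1.26 ± 0.16 SE, limma adjusted p = 6.5e-06). Neither pair of groups overlapped. Serping1, the inhibitor of the first complement enzymes, averaged 863 ± 170.4 in anti-rHER2 ISAC tumours and 485 ± 67.5 in anti-rHER2 tumours (log2 fold change 0.82 ± 0.18 SE, limma adjusted p = 0.00228), and C1qb, Cfb, C2 and C1ra lay between 0.44 and 0.86. The genes called lower were C1qbp, at -0.23 ± 0.08 SE, and Cd46, with signals of 4.93 or less in all 10 tumours. The lower calls numbered 0 or 1 in every fit that left out a tumour.

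Adhesion molecules with which leukocytes enter tissue were called higher in 8 of 19 genes (42.1%, against 19.6% of all genes), with no lower call and a median of 0.46. With equal medians 4 were called higher and 4 lower around a median of 0.03, and with quantile normalization 6 higher and 2 lower. Over all genes 61 were called higher and 200 lower with equal medians, around a median of -0.27. Itgb2, the beta chain shared by the leukocyte integrins, had signals of 498, 396, 583, 387 and 497 in the anti-rHER2 ISAC tumours, against 160.0, 115, 121, 194 and 143 in the anti-rHER2 tumours (log2 fold change 1.69 ± 0.17 SE, limma adjusted p = 4.75e-07). Its partners Itgam and Itgal were both called, the second at 0.73 ± 0.17 SE. Selplg, the ligand of selectins on leukocytes, was called at 0.79 and Amica1 at 1.19. Of the endothelial partners, Pecam1 was called higher, and Vcam1 at -0.13, Icam1 at 0.44 and Sele at 0.30 were not called.

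Endothelial genes were called higher in 3 of 16 (18.8%, near the 19.6% of all genes), among them Pecam1 at 0.54 ± 0.15 SE and Eng, a co-receptor of TGF-beta on endothelium, at 0.71 ± 0.14 SE. Matrix and fibroblast genes gave 5 higher calls (27.8%, against 19.6% of all genes) and 1 lower (5.56%, against 2.99%) among 18. Fn1 (fibronectin) was called higher at 0.47 and Col1a1 (collagen) at 0.51. The call of Col1a1 was lost in 6 of the 10 fits that left out a tumour, and the list had 3 higher calls without anti-rHER2 tumours 1 or 5 or anti-rHER2 ISAC tumours 3 or 5. With equal medians endothelial genes had 0 higher and 3 lower calls, and matrix genes 1 and 5. Over all genes there were 61 higher and 200 lower calls.

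Of 9 epithelial and tumour genes 1 was called higher (11.1%, against 19.6% of all genes), the mucin gene Muc1 at 0.71 ± 0.15 SE. The list median was 0.03. Epcam and Cdh1, the adhesion proteins of epithelial cells, averaged 5327 ± 654 in anti-rHER2 ISAC tumours and 5688 ± 607 in anti-rHER2 tumours for Epcam and 1156 ± 96.4 in anti-rHER2 ISAC tumours and 1155 ± 69.98 in anti-rHER2 tumours for Cdh1. Erbb2 had signals of 1759, 2127, 1507, 2408 and 1851 in the anti-rHER2 ISAC tumours, against 1599, 1660.1, 1531, 1775 and 1499 in the anti-rHER2 tumours. It was not called (log2 fold change 0.24 ± 0.13 SE, limma adjusted p = 0.187), its sign turned with equal medians, and whether this probe reads the rat transcript, the mouse one or both is not stated in the sources used here. None of 5 proliferation genes was called, against 22.6% of all genes. The 15 mast cell and eosinophil genes gave 3 higher calls (20.0%, near the 19.6% of all genes), Ccr3, Ccl11 and Il3ra. With equal medians they had 1 higher and 1 lower call, against 61 higher and 200 lower over all genes. The 20 inflammasome and cell death genes gave 2 higher (10%, against 19.6% of all genes), Bcl2l1 and Ripk2, and 1 lower (5%, against 2.99%), Bid. With equal medians none of them was called higher and 7 lower, against 61 higher and 200 lower over all genes. The count of mast cell and eosinophil genes was 1 without anti-rHER2 tumours 2, 3 or 5 or anti-rHER2 ISAC tumour 1, and that of inflammasome genes called higher was 4 without anti-rHER2 tumour 5. With equal medians the list medians of NF-kB pathway, monocyte and macrophage, interferon and receptor, cytotoxic and natural killer cell, T cell, B cell, checkpoint, complement, co-stimulation, matrix, endothelial, epithelial, mast cell and inflammasome genes were all negative, between -0.40 and -0.05. The median of all genes was -0.27 under that scaling. Of 21 reference genes, Tubb5 was called, at 0.27 ± 0.09 SE.

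**Figure D4:**
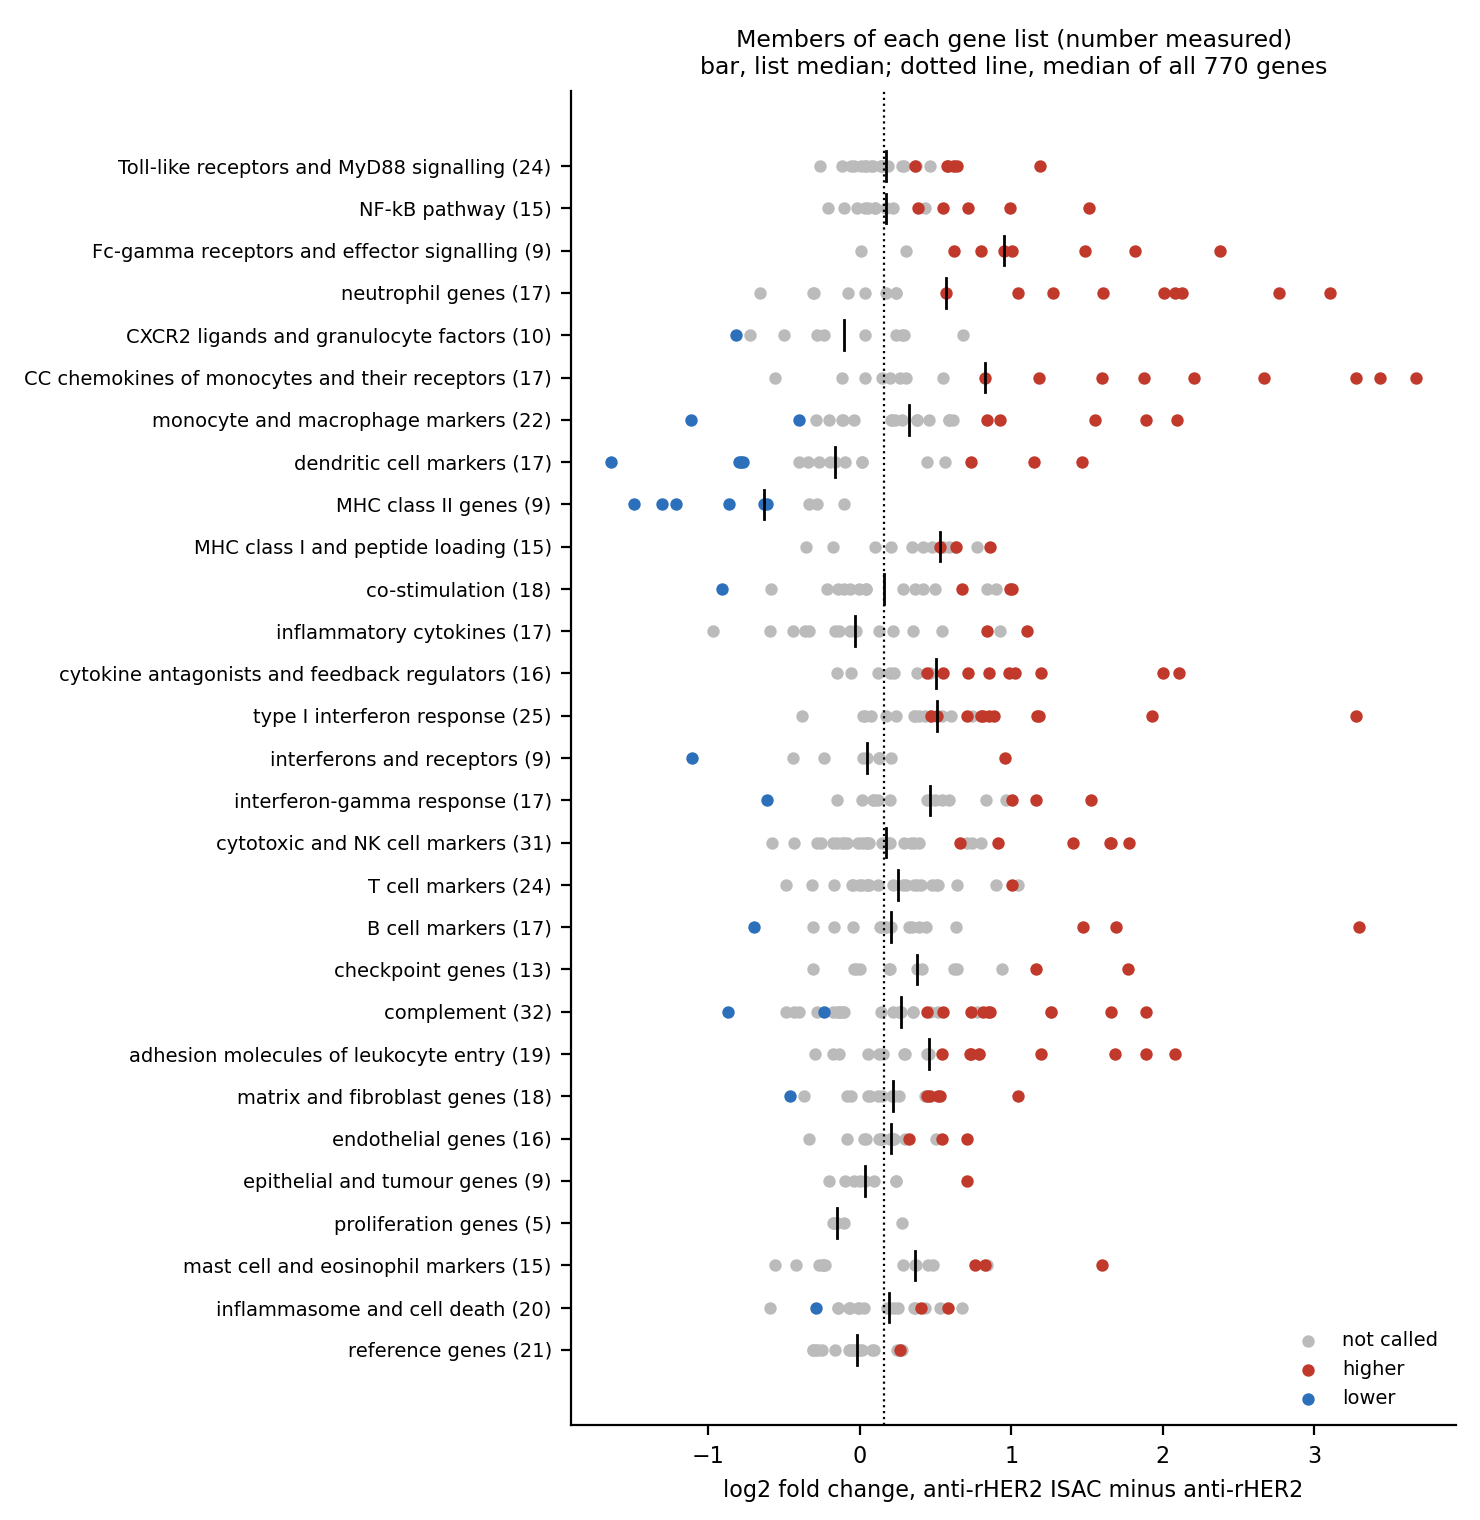
Each row is a gene list with the number of its genes that had values, and each point is a gene at its log2 fold change, anti-rHER2 ISAC minus anti-rHER2. Red points were called higher, blue points lower, grey points neither, black bars are list medians and the dotted line is the median of all 770 genes, 0.16. Fc-gamma receptor genes (median 0.95) and CC chemokines (0.83) lie farthest to the right and MHC class II genes (-0.63) farthest to the left.

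The anti-rHER2 ISAC tumours differed among themselves. Over the 151 genes called higher, tumour 3 was the highest of its group in 93 and tumour 2 the lowest in 98. The median difference from the group mean on the log2 scale was 0.25 in tumour 3 and -0.28 in tumour 2. In the anti-rHER2 group tumours 1 and 4 were the highest in 54 genes each, and tumour 2 was the lowest in 69. Over the 23 genes called lower, anti-rHER2 ISAC tumour 5 was the lowest in 9 and anti-rHER2 tumour 4 the highest in 10. These counts describe the spread around group means and were not tested.

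T785 on the isotype antibody gave no called gene. Comparing isotype ISAC with isotype antibody tumours, limma called 0 of 770 genes, with a smallest adjusted p of 0.306 and 47 genes (6.1%) at an unadjusted p below 0.05. By edgeR on the recovered counts 0 were called and 43 were below 0.05. The median log2 fold change over all genes was 0.03. The difference between the payload's change on anti-rHER2 and its change on the isotype antibody was tested as an interaction in the same fit. It was called for 55 genes (7.14%), 53 with a more positive change on anti-rHER2 (6.88%) and 2 with a more negative one (0.26%), around a median of 0.11. With equal medians the split was 36 and 49, with median-ratio scaling 46 and 11, and with quantile normalization 41 and 25. This test and the comparison above share the anti-rHER2 ISAC and anti-rHER2 tumours.

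Chemokines had the largest interactions among the genes named by the rule. Ccl3 had an interaction of 4.36 ± 0.58 SE on the log2 scale (limma adjusted p = 5.1e-05), with mean signals of 6.91 ± 2.59 under isotype ISAC and 12.2 ± 5.75 under isotype antibody. Ccl5 had one of 3.29 ± 0.40 SE (limma adjusted p = 2.73e-05), with 42.6 ± 8.83 under isotype ISAC and 45.1 ± 17.9 under isotype antibody. Cxcl13 had an interaction of 3.47 ± 0.57 SE, Ccl4 of 3.38 ± 0.45 SE, Ccl12 of 2.94 ± 0.41 SE and Ccl2 of 2.32 ± 0.38 SE. The log2 fold change with T785 on the isotype antibody was -0.69 for Ccl3, -0.01 for Ccl5, -0.17 for Cxcl13, 0.05 for Ccl4, -0.27 for Ccl12 and -0.12 for Ccl2, none of them called.

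Fcgr4 had its highest mean in the anti-rHER2 ISAC group. Its mean was 653 ± 126 in anti-rHER2 ISAC tumours and 125 ± 26.1 in anti-rHER2 tumours, with 128 ± 15.1 under isotype ISAC and 129.9 ± 15.9 under isotype antibody. The other 3 group means lay close together, and the interaction was 2.399 ± 0.21 SE (limma adjusted p = 7.8e-07). Cxcr2 and S100a8 also had higher means in the anti-rHER2 group than in the isotype groups, a difference not tested here. Cxcr2 averaged 113 ± 35.1 in anti-rHER2 ISAC tumours and 24.9 ± 6.22 in anti-rHER2 tumours, with signals of 1.14 to 7.09 under isotype ISAC and 1.00 to 6.65 under isotype antibody. S100a8 averaged 1225 ± 442 in anti-rHER2 ISAC tumours and 139 ± 41.3 in anti-rHER2 tumours, with 39.1 ± 11.2 under isotype ISAC and 30.4 ± 8.43 under isotype antibody. Their interactions were 2.12 ± 0.51 SE and 2.76 ± 0.42 SE (limma adjusted p = 0.0125 and 0.000193).

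Among feedback genes Il1rn had an interaction of 2.19 ± 0.25 SE and Il10 of 2.59 ± 0.47 SE, and among granule genes Gzmb had 1.82 ± 0.29 SE. Pou2f2 had 1.84 ± 0.18 SE and Itgam 1.84 ± 0.26 SE. The adjusted p of these 5 genes was at most 0.000917. The 2 genes with a more negative change on anti-rHER2 were H2-Ea-ps, at -1.57 ± 0.39 SE, and H2-Ab1, at -1.02 ± 0.29 SE (limma adjusted p = 0.0146 and 0.0358). H2-Ab1 averaged 1006 ± 212 in anti-rHER2 ISAC tumours and 2486 ± 576 in anti-rHER2 tumours, with 1990.3 ± 481 under isotype ISAC and 2417 ± 585 under isotype antibody, so that the anti-rHER2 ISAC group lay below the other 3. Its interaction was called under 19 of 30 alternatives, with adjusted p up to 0.0797. The class II genes H2-Aa, Cd74 and Ciita had no called interaction.

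Lyz2 and Ccl17 were called lower against anti-rHER2 without a called interaction. Lyz2 averaged 1809 ± 374 in anti-rHER2 ISAC tumours and 3917 ± 984 in anti-rHER2 tumours, with 2038 ± 156 under isotype ISAC and 2424 ± 742 under isotype antibody, so its highest group was anti-rHER2 (interaction -0.91 ± 0.29 SE, limma adjusted p = 0.064). Cxcl9 was called higher against anti-rHER2, and its interaction of 1.41 ± 0.53 SE was not called (limma adjusted p = 0.139). Cd274 and Ifit3 had interactions of 1.08 ± 0.42 SE and 1.43 ± 0.44 SE that were not called either (limma adjusted p = 0.146 and 0.056).

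**Figure D5:**
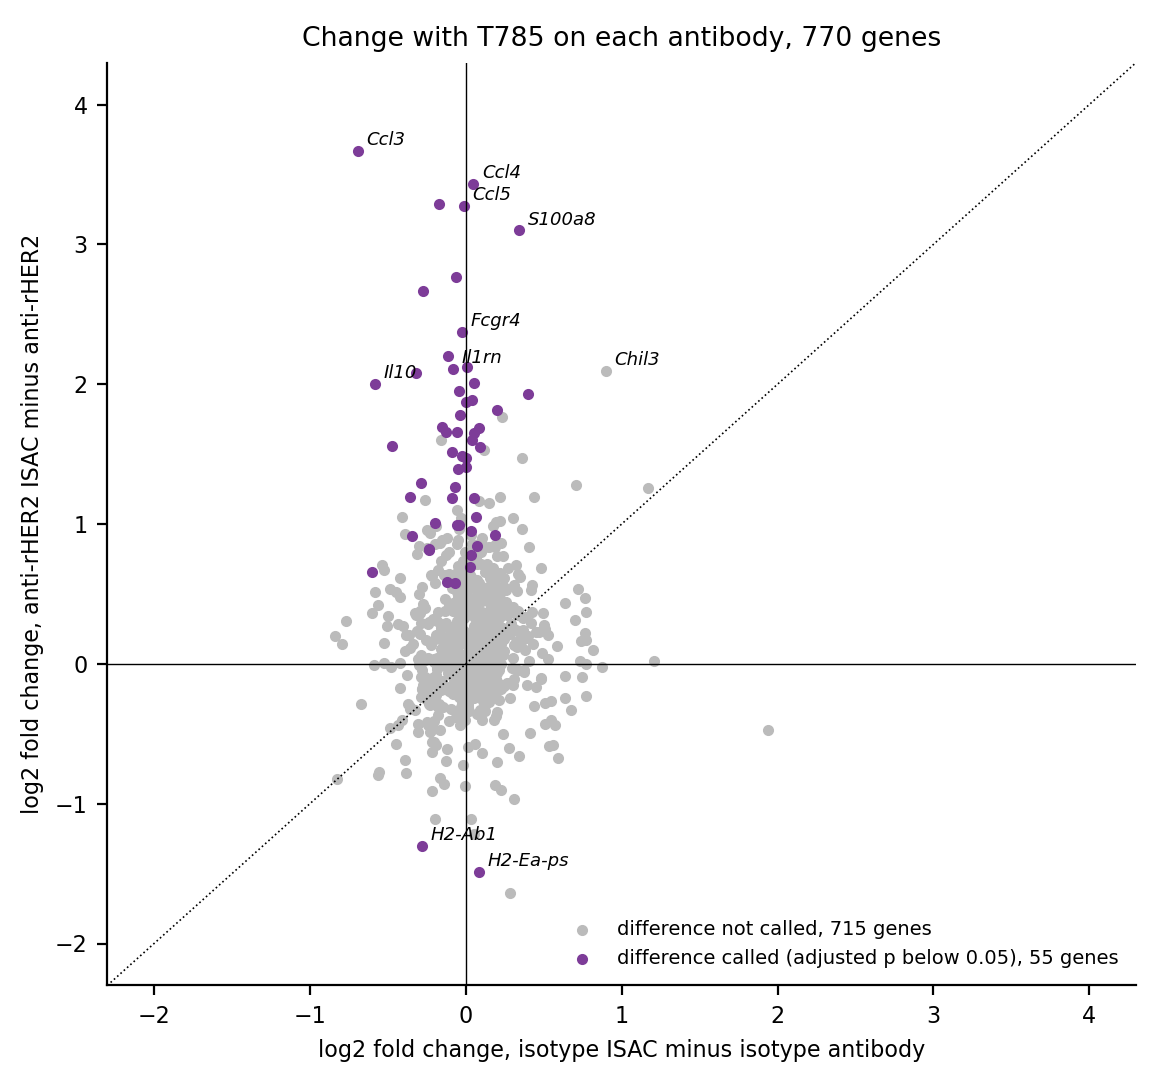
Each point is 1 of 770 genes, with the log2 fold change of T785 on the isotype antibody (isotype ISAC minus isotype antibody) on the horizontal axis and on anti-rHER2 (anti-rHER2 ISAC minus anti-rHER2) on the vertical axis. Purple points are the 55 genes with a called interaction, and the dotted line marks equal changes. Ccl3 lies at 3.67 on the vertical and -0.69 on the horizontal axis.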

How the data were processed

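RNA of 20 tumours was counted with an nCounter panel. The deposited table holds a normalized signal per gene and tumour, made by the authors, with no value below 1. The normalization, the background correction and the instrument run are not stated in the labels, and batches could not be tested. Dividing the deposited signal of each tumour by a step of 0.826 to 1.33 gave whole counts within 0.02 for all values above 1 and up to 1000. In all, 344 values lay at 1, none of them in tumours with a step above 1, where a single count lies above 1. No 2 tumours had identical values.

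Log2(signal + 1) of the deposited values was fitted with limma 3.58.1 in R 4.3.3, 1 mean per group over all 20 tumours, which share the estimate of the spread. P-values were adjusted by Benjamini-Hochberg over 770 genes and set a difference of group means against the spread between tumours. The interaction is the change with T785 on anti-rHER2 minus that on the isotype antibody. The scripts were tested on simulated data. Alternatives were 4 scalings, a filter on the lowest 25% of genes, a pseudocount of 10, the compared groups only, array weights, a replicate block, a trended robust prior, edgeR 4.0.16 on the recovered counts, and each tumour left out.

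Named genes were the 14 highest and 10 lowest called fold changes, up to 4 of each list by size, 8 interaction genes and a fixed set. The members and lists were chosen with earlier results of these data known. Other genes in the text, among them Csf1r, Cd74, Ciita, Isg15, Csf3r, Lyn and Itgax, were chosen after their values were seen. A few genes that the rule names are not reported here. Of the 770 symbols, 762 matched RefSeq symbols or synonyms. The labels state no probe positions.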

Additional observations from a re-analysis of the deposited data

Results flagged for a closer look

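Among the genes named by the rule and reported here, 35 had a called interaction, that is, the change with T785 on anti-rHER2 differed from its change on the isotype antibody (limma, adjusted over 770 genes). The values are differences of log2 changes, and 33 of them were positive. Among chemokines the interaction was 4.36 for Ccl3, 3.47 for Cxcl13, 3.38 for Ccl4, 3.29 for Ccl5, 2.94 for Ccl12 and 2.32 for Ccl2. Neutrophil genes gave 2.83 for Fpr2, 2.76 for S100a8, 2.12 for Cxcr2 and 1.95 for Slc11a1. Fc receptor genes gave 2.399 for Fcgr4, 1.51 for Fcer1g and 1.20 for Fcgr1. Other myeloid genes gave 1.84 for Itgam, 1.60 for Itgb2, 1.46 for Msr1, 1.47 for Clec4a2, 1.72 for C5ar1 and 1.33 for C3ar1. Cytokine regulators gave 2.59 for Il10 and 2.19 for Il1rn. Signalling genes gave 1.84 for Pou2f2, 1.55 for Tlr1, 1.04 for Ikbke, 0.71 for Ripk2 and 0.65 for Myd88. Genes of the cytotoxic and natural killer cell list gave 1.82 for Gzmb, 1.78 for Prf1, 1.60 for Gzma and 1.40 for Klra17. The co-stimulatory gene Slamf7 gave 1.05. Interferon response genes gave 1.53 for Ifitm1 and 1.13 for Oasl1. The negative values were -1.57 for H2-Ea-ps and -1.02 for H2-Ab1. Over 30 alternatives, or 29 for Cxcl13 and Il10, which the filter on low genes removed, the interaction was called in 19 for H2-Ab1, 28 for Ikbke, 18 for Slamf7, 18 for Oasl1, 10 for Prf1, 14 for Gzma, 29 for Klra17, 10 for Ripk2, 27 for Myd88 and in all for the other 26 genes.

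A single tumour stood far from the other 4 of its group, by Dixon's test, in 16 of 232 gene and group pairs (6.90%), where chance gives about 1 in 20. In the anti-rHER2 ISAC group, tumour 3 was apart with a signal of 268.26 for Ccl3, 1152.5 for Ccl2 and 96184.4 for Lcn2. Tumour 2 of that group was apart with 39.38 for Cd86, 98.46 for Cxcl10, 10.27 for Mefv and 4.28 for Il6. Tumour 4 was apart with 2.54 for Cd46 and 1.70 for Blk, and tumour 5 with 106.44 for Angpt2. In the anti-rHER2 group, tumour 5 was apart with 5640.69 for Lyz2, 50.34 for Prf1 and 29.69 for Cxcl15. Tumour 4 of that group was apart with 1706.24 for Fcgr2b, tumour 3 with 5.78 for Il1r2 and tumour 2 with 14.89 for Tlr7.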

How the results depend on the processing

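The number of genes called between anti-rHER2 ISAC and anti-rHER2 tumours, 174, was 174 with the reference genes at equal means, 175 with the filter, 185 with a pseudocount of 10, 135 with the compared groups only, 196 with array weights, 183 with the trended robust prior, 187 with edgeR, 261 with equal medians, 201 with quantile normalization and 138 with median-ratio scaling. It ran from 118 without anti-rHER2 ISAC tumour 1 to 184 without anti-rHER2 ISAC tumour 2. The number of interaction calls, 55, moved to 85 with equal medians and ran from 47 to 67 with 1 tumour left out. Same-numbered tumours correlated by 0.163, 0.230, -0.131, -0.033 and 0.023, and 1 of 5 correlated best with its own number. These 5 values show no common pairing by number but cannot exclude one. With the replicate block 162 genes and 59 interactions were called. Of 81 called genes named by the rule, 50 kept their call under every setting, 55 under the 4 scalings and 60 under the 10 fits with a tumour left out. Of the scalings, that to equal means of the reference genes could change little, since those genes were already nearly level on the deposited scale. It shared 173 of the 174 calls. Among the genes named by the rule, those whose log2 fold change turned sign were all uncalled. With equal medians the fold changes were -0.19 for Erbb2, -0.19 for Lcn2, -0.15 for Ccnd3, -0.28 for Tlr7, -0.42 for Fcgr3, -0.15 for Cd80 and -0.38 for Ncr1. With median-ratio scaling they were -0.041 for Tlr7, -0.19 for Fcgr3 and -0.15 for Ncr1. With quantile normalization they were -0.12 for Ccnd3, -0.22 for Tlr7, -0.34 for Fcgr3, -0.081 for Cd80 and -0.29 for Ncr1, and with array weights -0.0083 for Ncr1. With a tumour left out the ranges were -0.13 to 0.14 for Fcgr3, -0.020 to 0.31 for Tlr7, -0.11 to 0.15 for Ncr1 and -0.73 to 0.073 for Ifna1. The cause of these shifts was not tested. In 155 genes both groups averaged under 10 counts, and 6 of these were called, Blk, Cd27, Cd46, Ifnb1, Ifng and Marco. No untreated tumours are among the groups, and each group has 5 tumours at 1 time.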
